A study of Mus musculus with 9 samples.

Results

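The phosphofructokinase family is described here in a mouse pancreatic cancer cell line, by the 7 genes Pfkl, Pfkm, Pfkp, Pfkfb1, Pfkfb2, Pfkfb3 and Pfkfb4. The members were chosen by name, as every probe set (a group of short probes for 1 transcript) whose annotation gives 1 of these symbols and no other gene. This gave 14 probe sets of 6 genes, out of 18193 genes with such a probe set, and Pfkfb1 was not analysed here. The family was put forward with earlier results of these arrays in view, namely that Pfkp and Pfkfb3 lay high in beta-catenin cells relative to control cells. For the family genes, values of beta-catenin cells against control cells are therefore given as a description, without p-values. The same holds for Pfkp and Pfkfb3 in every comparison, since those with ICAT cells reuse the beta-catenin or the control arrays on which these genes stood out.

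The cells were line 170#3, of a mixed C57BL6 x FVB x 129Sv background, grown as monolayers in DMEM with serum. One group was stably transfected with beta-catenin, the co-activator of TCF/LEF transcription factors in Wnt signalling. Another was stably transfected with ICAT, a natural inhibitor of beta-catenin that blocks its contact with TCF/LEF factors, and the third was the transfection control of the same line. There were 3 arrays per group, labelled biological replicates. The labels do not say whether a line is 1 clone or a pool, nor which promoter drives the transfected gene. The spread behind every p-value is therefore that of these arrays, which may be technical. All values are log2 expression after RMA normalization, so a difference of 1 is a 2-fold change.

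Array medians lay between 6.21 and 6.29, and the lowest correlation within a group was 0.9941. The median SD of a gene between replicates was 0.0746 in beta-catenin cells, 0.121 in ICAT cells and 0.0567 in control cells. Of 7 markers of pancreatic ductal carcinoma epithelium 6 passed a filter of log2 5 on 3 arrays, while the epithelial cadherin gene Cdh1 did not exceed 3.56 on any array. Of 4 measured immune markers 3 passed the filter (Cd14, Cd3e and Cd68), and the leukocyte gene Ptprc did not exceed 4.50. Cd68 (log2 difference -0.55) and Cd14 (-0.50) were called lower in beta-catenin cells. Of 3 endothelial markers Kdr and Pecam1 passed the filter and Cdh5 did not exceed 4.72. Among 4 skeletal muscle markers, included because muscle is rich in Pfkm, none passed the test in either line against control by limma. The mean log2 value over these 4 lay from 6.60 to 6.65 in beta-catenin cells, from 6.47 to 6.70 in ICAT cells and from 6.72 to 6.74 in control cells. Among 3 liver markers, rich in Pfkl, none passed in beta-catenin cells, and Apoa1 alone passed in ICAT cells, where it fell.

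Phosphofructokinase is a tetrameric enzyme that phosphorylates fructose 6-phosphate, the committed step of glycolysis. Its subunits come from 3 genes, named for muscle (Pfkm), liver (Pfkl) and platelet (Pfkp), which assemble into mixed tetramers in most tissues. The PFKFB enzymes make and break fructose 2,6-bisphosphate, a potent activator of phosphofructokinase. Of these, Pfkfb3 encodes an isoform with strong kinase and weak phosphatase activity, Pfkfb4 a widely studied isoform of tumours, Pfkfb2 the heart isoform and Pfkfb1 the liver and muscle isoform. Pfkfb3 and Pfkfb4 are known targets of the hypoxia-inducible factors (HIF).

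On the mouse build GRCm38.p6 Pfkp spans chr13:6579874-6649060, Pfkl chr10:77986947-78009807 and Pfkm chr15:98092589-98132447. Pfkfb3 spans chr2:11471430-11554071, Pfkfb4 chr9:108988272-109032236, Pfkfb2 chr1:130689043-130729253 and Pfkfb1 chrX:150587445-150643878. The promoters of Pfkp, Pfkfb3 and Pfkl are shown because these genes were those with the largest differences between the groups and went in different directions. The sequences are the 250 bases before each annotated start, from RefSeq on build GRCm38.p6, and all 7 genes matched the table. Capitals mark the core of the HIF motif, ACGTG or GCGTG on either strand. Pfkp lies on the minus strand at chr13:6648772-6649021, Pfkfb3 has a pair of starts on the minus strand at chr2:11553930-11554179 and chr2:11502091-11502340, and Pfkl lies on the minus strand at chr10:78009808-78010057.
Pfkp: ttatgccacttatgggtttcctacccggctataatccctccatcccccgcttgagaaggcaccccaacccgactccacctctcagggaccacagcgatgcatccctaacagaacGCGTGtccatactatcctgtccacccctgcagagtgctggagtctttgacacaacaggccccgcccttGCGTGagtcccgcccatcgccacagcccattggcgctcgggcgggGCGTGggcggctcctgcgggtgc
Pfkfb3, first start: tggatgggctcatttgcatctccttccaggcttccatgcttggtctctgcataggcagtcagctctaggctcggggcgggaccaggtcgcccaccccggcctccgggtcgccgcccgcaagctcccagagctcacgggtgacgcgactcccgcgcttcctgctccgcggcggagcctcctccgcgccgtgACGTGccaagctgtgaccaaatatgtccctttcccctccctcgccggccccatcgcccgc
Pfkfb3, second start: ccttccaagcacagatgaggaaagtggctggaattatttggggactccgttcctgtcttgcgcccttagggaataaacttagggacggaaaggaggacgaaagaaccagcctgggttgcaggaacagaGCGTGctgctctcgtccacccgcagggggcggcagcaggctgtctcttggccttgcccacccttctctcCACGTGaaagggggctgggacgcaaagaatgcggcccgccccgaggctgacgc
Pfkl: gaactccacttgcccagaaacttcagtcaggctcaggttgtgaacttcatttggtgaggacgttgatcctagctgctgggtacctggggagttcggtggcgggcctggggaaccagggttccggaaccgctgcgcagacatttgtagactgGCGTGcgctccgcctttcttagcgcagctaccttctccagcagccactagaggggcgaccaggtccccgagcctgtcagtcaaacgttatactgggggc

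The Pfkp window held 3 matches to the HIF core, at 136, 68 and 23 bases before the start. The Pfkfb3 windows held 1 match, 60 bases before the first start, and 3 matches before the second, of which 2 are the same letters read on opposite strands, and the Pfkl window held 1 match, 99 bases before its start. Over all 7 genes 12 of 16 such windows held a match, against 38.6 percent of 32851 promoter windows of the same length. Several of the 16 windows belong to the same gene and some overlap, so they are not separate counts. A TCF/LEF motif (CTTTG followed by AA, AT, TA or TT, on either strand) was in 1 of the 16 windows, before a start of Pfkfb1, against 14.8 percent of all windows, and in none of the 4 printed. A match is a description of letters and says nothing about binding.

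Pfkp, the platelet-type subunit gene, had the widest range among the subunit genes. Its brightest probe set, 1416069_at, stood at 8.03, 7.88 and 8.00 in beta-catenin cells, 7.39, 7.54 and 7.53 in ICAT cells and 6.11, 6.19 and 6.29 in control cells. The 3 groups did not overlap, and control cells were lowest. The mean was 3.42-fold above control in beta-catenin cells (log2 difference 1.78, SE 0.074). The ICAT mean was 2.45-fold above control (log2 difference 1.29, SE 0.074), higher than the difference of 98.6 percent of the genes tested. This rank is a description only, since the control arrays are among those on which Pfkp stood out. Beta-catenin cells lay 1.40-fold above ICAT cells (log2 difference 0.48, SE 0.074).

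The other Pfkp probe sets moved much less. Probe set 1430634_a_at read 6.04, 6.04 and 5.93 in beta-catenin cells, 5.78, 5.79 and 5.85 in ICAT cells and 5.79, 5.53 and 5.73 in control cells. Its ICAT values overlapped those of control (log2 difference 0.12), while the beta-catenin values lay above all control values by 0.32 in the mean. Probe set 1437759_at was 0.19 above control in beta-catenin cells and 0.04 above it in ICAT cells, where its values also overlapped those of control. With the probe sets of each gene averaged, the Pfkp difference from control was 0.76 in beta-catenin cells and 0.49 in ICAT cells. Its size rests on 1 probe set, as does the separation of ICAT from control cells. Which part of the transcript each probe set reads was not analysed here.

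Pfkm, the muscle-type subunit gene, was higher in both transfected lines by similar amounts. Its 1 probe set read 9.18, 9.16 and 9.16 in beta-catenin cells, 9.10, 9.02 and 9.14 in ICAT cells and 8.57, 8.57 and 8.65 in control cells. Every array of the transfected lines lay above every control array, and the beta-catenin arrays lay just above the ICAT arrays. The beta-catenin mean was 1.48-fold above control (log2 difference 0.57, SE 0.060). In ICAT cells Pfkm rose 1.40-fold (log2 difference 0.49, SE 0.060, limma adjusted p = 8.24e-05). The difference between beta-catenin and ICAT cells was 0.08, with a 95% interval from -0.05 to 0.21 (adjusted p = 0.337).

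Pfkl, the liver-type subunit gene, was the one member that was low in beta-catenin cells. Its brightest probe set, 1439148_a_at, read 9.24, 9.17 and 9.19 in beta-catenin cells, 9.81, 10.04 and 10.07 in ICAT cells and 9.75, 9.84 and 9.87 in control cells. All 3 beta-catenin arrays lay below all others, and 1 ICAT array lay within the control range. The beta-catenin mean was 1.53-fold below control (log2 difference -0.62, SE 0.077). In ICAT cells the difference from control was 0.16 (SE 0.077, 95% interval -0.01 to 0.33) and did not pass the test (limma adjusted p = 0.145). Without ICAT replicate 1 it was 0.24 and passed (adjusted p = 0.0149). Pfkl was 1.71-fold lower in beta-catenin than in ICAT cells (log2 difference -0.77, SE 0.077, adjusted p = 1.49e-05).

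A further Pfkl probe set, 1450269_a_at, gave 8.77, 8.62 and 8.68 in beta-catenin cells, 9.16, 9.34 and 9.23 in ICAT cells and 9.09, 9.19 and 9.19 in control cells. It was likewise lower in beta-catenin than in ICAT cells (log2 difference -0.55, limma adjusted p = 0.000153 over all probe sets). The dimmest Pfkl probe set, 1453541_at, differed between these lines by -0.19 and did not pass (adjusted p = 0.214). Its difference from control was -0.08 in beta-catenin cells and 0.11 in ICAT cells (adjusted p = 0.534 for ICAT).

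**Figure D1:**
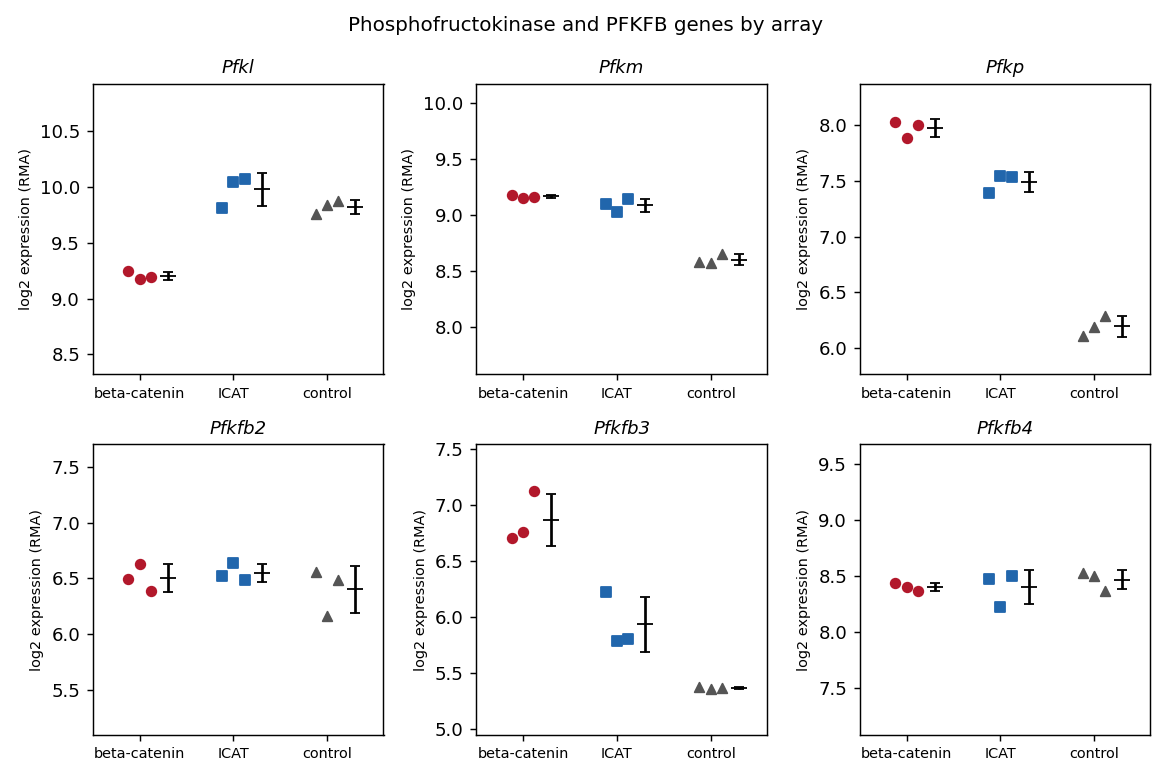
Log2 expression after RMA (vertical axis, the same span in every panel) of the brightest probe set of each of 6 genes on the 9 arrays, by group, with the mean and SD beside the points. Pfkp and Pfkfb3 lie lowest in control cells, Pfkl lies lowest in beta-catenin cells, and the groups overlap for Pfkfb2 and Pfkfb4.

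Pfkfb3, whose product makes the activator fructose 2,6-bisphosphate, was dim in control cells and higher in both transfected lines. Its brightest probe set, 1416432_at, read 6.71, 6.76 and 7.13 in beta-catenin cells, 6.22, 5.78 and 5.80 in ICAT cells and 5.37, 5.36 and 5.37 in control cells. The groups did not overlap, and in each transfected group 1 array lay well above the other two. The beta-catenin mean was 2.83-fold above control (log2 difference 1.50, SE 0.128). The ICAT mean was 1.48-fold above control (log2 difference 0.57, SE 0.128), and from 0.43 to 0.64 when 1 array was left out. Beta-catenin cells lay 1.91-fold above ICAT cells (log2 difference 0.93, SE 0.128).

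The other Pfkfb3 probe set, 1456676_a_at, did not show this range. It gave 5.83, 5.70 and 5.59 in beta-catenin cells, 5.62, 5.68 and 5.79 in ICAT cells and 5.61, 5.47 and 5.53 in control cells. The ICAT difference from control was 0.16, and the beta-catenin difference was 0.17. In control cells both probe sets lay close to the filter of log2 5, where RMA can compress differences. With both averaged, the difference from control was 0.84 in beta-catenin cells and 0.37 in ICAT cells.

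Pfkfb4, which like Pfkfb3 encodes an isoform expressed in tumours, gave 8.44, 8.40 and 8.37 in beta-catenin cells, 8.47, 8.23 and 8.50 in ICAT cells and 8.53, 8.50 and 8.37 in control cells. All 3 groups overlapped. The difference from control was -0.06 (SE 0.081) in beta-catenin cells. It was -0.07 in ICAT cells (95% interval -0.24 to 0.11, limma adjusted p = 0.596). Between beta-catenin and ICAT cells it was 0.00, with an interval from -0.18 to 0.18 (adjusted p = 0.982).

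Pfkfb2, the heart isoform gene, gave 6.49, 6.63 and 6.39 in beta-catenin cells, 6.52, 6.64 and 6.49 in ICAT cells and 6.56, 6.16 and 6.48 in control cells by its brightest probe set, 1429486_at. The groups overlapped, with 1 low control array. The difference from control was 0.10 in beta-catenin cells, and in ICAT cells it was 0.15 (95% interval -0.08 to 0.38, limma adjusted p = 0.317). Between beta-catenin and ICAT cells it was -0.04, with an interval from -0.27 to 0.18 (adjusted p = 0.777). Of its other probe sets, 1422091_at lay between 5.57 and 5.94 over all arrays. The remaining pair, 1422090_a_at and 1422092_at, stayed below log2 5 on every array.

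Counted over the family, 4 of 6 genes passed at an adjusted p under 0.05 in beta-catenin against control cells, 3 higher and 1 lower, against 34.9 percent of all 15235 genes tested and 19.6 percent called higher. The arrays did not overlap for 4 of 6, against 54.1 percent of all genes, and 2 of 6 were called at least 2-fold higher, against 3.01 percent. Since this comparison put the family forward, nothing is read from these counts. In ICAT against control cells 3 of 6 passed, all higher, against 18.7 percent of genes called higher and 37.2 percent called in either direction. Of the 4 members besides Pfkp and Pfkfb3 only Pfkm did. The arrays of both groups did not overlap for 3 of 6, against 46.2 percent of all genes, and Pfkp alone was called at least 2-fold higher, against 2.49 percent. In beta-catenin against ICAT cells 3 of 6 passed, against 40.4 percent of all genes, and of the 4 members besides Pfkp and Pfkfb3 only Pfkl did. The arrays of these lines did not overlap for 4 of 6, against 47.6 percent. Every count over the 6 genes in both comparisons with ICAT cells takes in Pfkp and Pfkfb3, so nothing is read from it. The median difference from control over the 6 genes was 0.33 in beta-catenin cells and 0.32 in ICAT cells, against -0.03 and -0.01 over all genes. Each family median includes Pfkp and Pfkfb3, which put the family forward, so nothing is read from it. Both comparisons share the control arrays.

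Of the 8 probe sets that do not represent their gene, 2 passed in beta-catenin against control cells, against 22.1 percent of all 45037 probe sets. Of these, 1 was higher (Pfkp) and 1 lower (Pfkl). Nothing is read from this count, since that comparison put the family forward. In ICAT against control cells none of the 8 passed by limma, and none had an unadjusted p under 0.05, against 23.1 percent of all probe sets. In beta-catenin against ICAT cells 1 of 8 passed, the Pfkl set given above, against 26 percent.

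**Figure D2:**
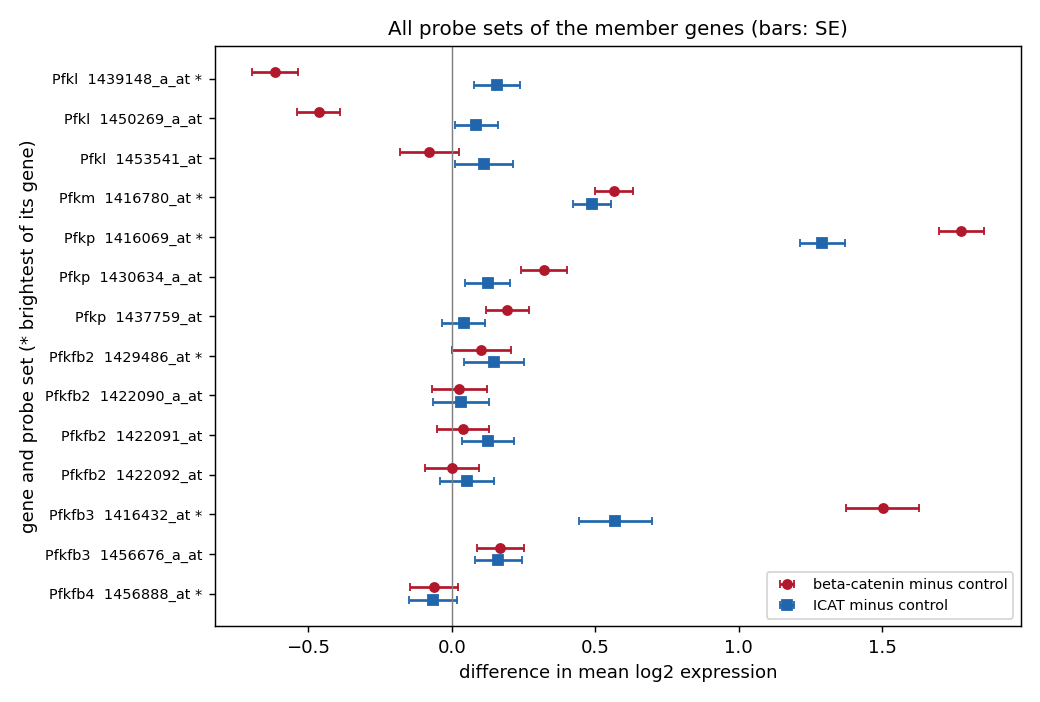
Difference in mean log2 expression from control (horizontal axis, bars are the SE) for the 14 probe sets, in beta-catenin cells (circles) and ICAT cells (squares). Only 1 of 3 Pfkp probe sets and 1 of 2 Pfkfb3 probe sets lie beyond 0.5 in both lines, and the Pfkl sets lie below 0 in beta-catenin cells and above 0 in ICAT cells.

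The balance between family members was followed as the difference of their log2 values on the same array. The value itself depends on the probes, so only its shift between groups was compared. Pfkp minus Pfkl was -1.21, -1.29 and -1.19 in beta-catenin cells, -2.42, -2.50 and -2.54 in ICAT cells and -3.64, -3.65 and -3.58 in control cells. The groups did not overlap, and the shift toward Pfkp from control was 2.39 in beta-catenin cells and 1.13 in ICAT cells. Pfkp minus Pfkm shifted by 1.21 in beta-catenin and by 0.80 in ICAT cells, again without overlap with control. These shifts are a description, since each balance holds Pfkp or Pfkfb3.

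Between the regulators, Pfkfb3 minus Pfkfb4 was -1.73, -1.63 and -1.24 in beta-catenin cells, -2.25, -2.44 and -2.70 in ICAT cells and -3.16, -3.14 and -3.00 in control cells. The shift from control was 1.56 in beta-catenin cells and 0.63 in ICAT cells. Pfkfb3 minus Pfkfb2 shifted by 1.40 in beta-catenin cells. In ICAT cells it shifted by 0.42, with arrays that overlapped those of control. With all probe sets of a gene averaged, the ICAT shift of Pfkp minus Pfkl was 0.37 and that of Pfkp minus Pfkm was -0.0016. The ICAT shift of Pfkp against Pfkm was thus not seen by that measure. In beta-catenin cells the averaged differences from control were 0.76 for Pfkp, 0.57 for Pfkm and -0.39 for Pfkl, so the Pfkp shifts were smaller there too.

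**Figure D3:**
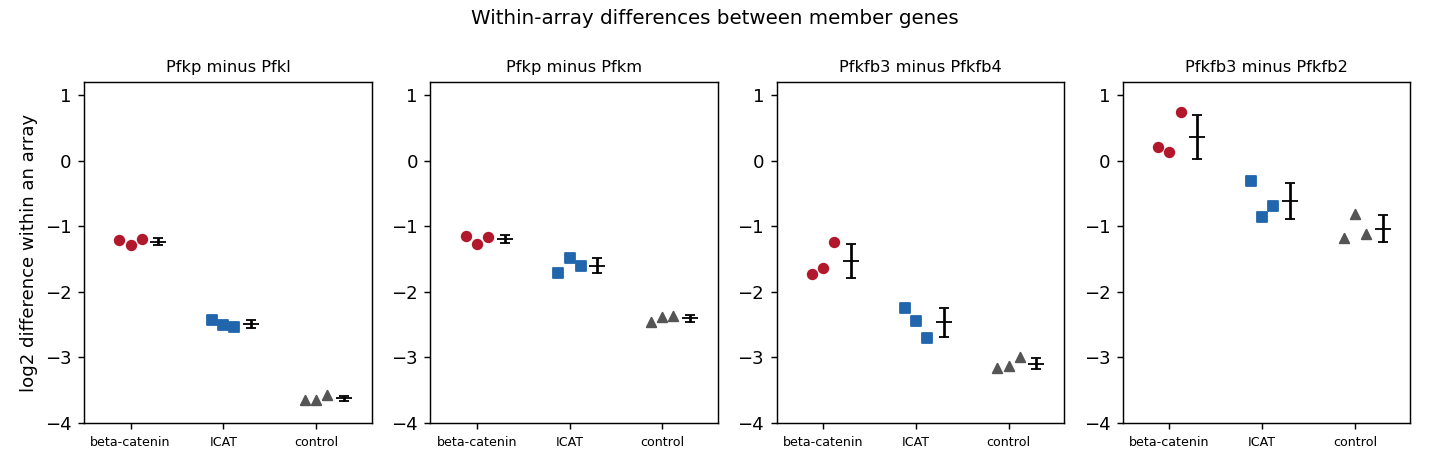
Within-array log2 difference between pairs of family members (vertical axis) on the 9 arrays by group, with the mean and SD beside the points. The groups separate for Pfkp minus Pfkl, Pfkp minus Pfkm and Pfkfb3 minus Pfkfb4, and ICAT overlaps control for Pfkfb3 minus Pfkfb2.

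The other genes of glucose transport and glycolysis were called lower or not at all in beta-catenin cells, and in both directions in ICAT cells. The gene lists here and below were chosen with earlier results of these data known. Their counts and p-values therefore describe these arrays only. Of 19 tested genes of a list of 25, 11 fell in beta-catenin cells and none was higher by limma, also at an unadjusted threshold of 0.05 (median log2 difference -0.25, against -0.03 over all genes). Of all genes 15.4 percent were called lower there. In ICAT cells 7 rose and 5 fell (median 0.06, against -0.01), where 18.7 percent of all genes were called higher and 18.5 percent lower. Slc2a1, the glucose transporter gene GLUT1, fell 3.20-fold in beta-catenin cells (8.95 ± 0.045, against 10.63 ± 0.068 in control cells, SD, n = 3 each). It rose 1.23-fold in ICAT cells (10.93 ± 0.236, limma adjusted p = 0.0363), with arrays that overlapped those of control. Eno3, a muscle enolase gene, fell 3.15-fold in beta-catenin and 1.34-fold in ICAT cells.

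Aldoc, an aldolase gene, rose 5.04-fold in ICAT cells (9.44 ± 0.110, against 7.11 ± 0.136 in control cells, adjusted p = 2.13e-08), and differed from control by -0.17 in beta-catenin cells without passing. Eno2, the neuronal enolase gene, rose 3.06-fold in ICAT cells and fell 1.49-fold in beta-catenin cells. Slc2a3, the glucose transporter gene GLUT3, rose 2.21-fold in ICAT cells and differed by 0.13 in beta-catenin cells without passing. Bpgm, which encodes bisphosphoglycerate mutase, fell 1.80-fold in ICAT cells and differed by 0.32 in beta-catenin cells without passing. Direct tests between beta-catenin and ICAT cells passed for all 6 genes named here. The log2 difference was -2.50 for Aldoc, -2.19 for Eno2, -1.98 for Slc2a1, -1.23 for Eno3, -1.01 for Slc2a3 and 1.16 for Bpgm.

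HIF target genes outside glycolysis were called lower or not at all in beta-catenin cells, and higher or not at all in ICAT cells. Of 15 tested, 8 fell in beta-catenin cells and none was higher by limma, also at an unadjusted threshold of 0.05 (median log2 difference -0.46, against -0.03 over all genes, of which 15.4 percent were called lower). In ICAT cells 12 rose and none was lower, also at that unadjusted threshold (median 0.47, against -0.01 over all genes, of which 18.7 percent were called higher). Vegfa, which encodes an angiogenic growth factor, fell 1.96-fold in beta-catenin cells and rose 1.67-fold in ICAT cells (adjusted p = 0.000102). Ndrg1 fell 1.38-fold in beta-catenin cells and rose 2.42-fold in ICAT cells. Ddit4, which encodes an inhibitor of mTORC1 signalling, fell 2.11-fold in beta-catenin cells and rose 1.34-fold in ICAT cells. Adm, the adrenomedullin gene, fell 3.32-fold in beta-catenin cells and differed by 0.19 in ICAT cells without passing. The mitophagy receptor gene Bnip3 rose 2.24-fold in ICAT cells and differed by -0.17 in beta-catenin cells without passing. Ankrd37 rose 1.93-fold in ICAT cells and differed by -0.55 in beta-catenin cells without passing.

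Of the 15 HIF targets 14 were lower in beta-catenin than in ICAT cells by limma, against 17.9 percent of all genes called lower. Within the family, Pfkl was also lower in beta-catenin than in ICAT cells (log2 difference -0.77). Pfkm (0.08), Pfkfb2 (-0.04) and Pfkfb4 (0.0031) did not pass in this comparison. Pfkp and Pfkfb3 lay higher in beta-catenin cells, but were put forward for being high there. Some markers of cell state were also called. Of 6 tested epithelial markers 4 rose in ICAT cells (Krt8, Krt18, Krt19 and Sox9) and none was called in beta-catenin cells. Krt19 lay close to the filter of log2 5. The mean log2 value over all 7 epithelial markers lay from 6.47 to 6.53 in beta-catenin cells, from 6.79 to 7.05 in ICAT cells and from 6.48 to 6.54 in control cells. Of 5 mesenchymal markers 3 rose in ICAT cells, and 1 rose and 3 fell in beta-catenin cells. Of all genes 18.7 percent were called higher in ICAT cells. In beta-catenin cells 19.6 percent were called higher and 15.4 percent lower. The part of these changes in the values of the family and of the lists was not tested.

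**Figure D4:**
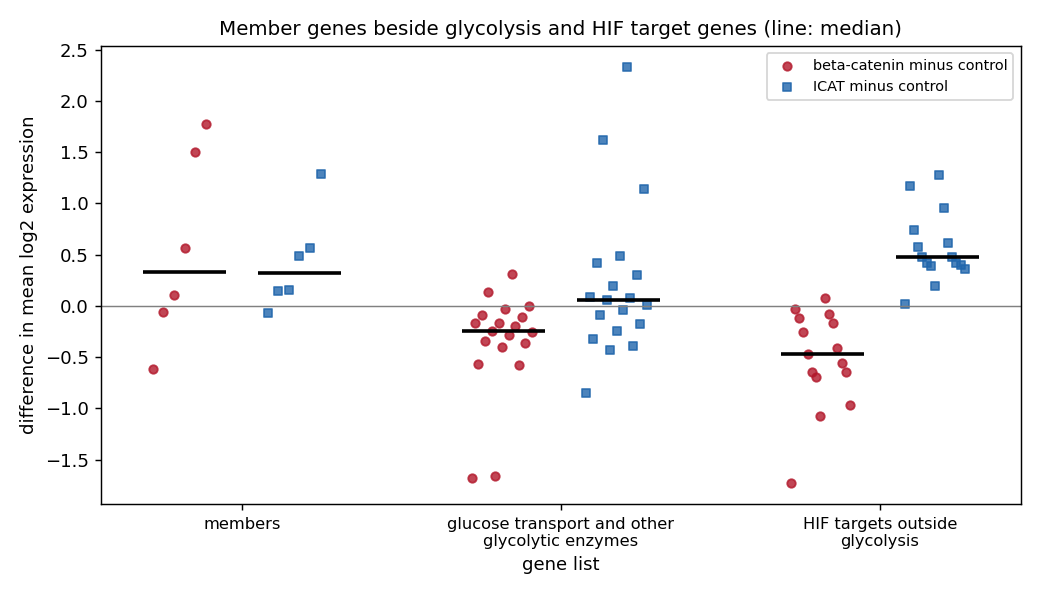
Difference in mean log2 expression from control (vertical axis) of the 6 family genes, 19 other glycolysis genes and 15 HIF target genes in beta-catenin cells (circles) and ICAT cells (squares), with the median as a line. HIF targets lie mostly below 0 in beta-catenin cells and above 0 in ICAT cells. The family medians are 0.33 and 0.32, and include Pfkp and Pfkfb3, which put the family forward.

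Among 14 tested genes known to regulate phosphofructokinases or their PFKFB regulators, beta-catenin cells had 4 called higher and 3 lower, and ICAT cells had 5 called higher and 2 lower. That is 50 percent of the list in each line, against 34.9 percent of all genes in beta-catenin cells and 37.2 percent in ICAT cells. Ppargc1a, which encodes the metabolic co-activator PGC-1alpha, rose 5.15-fold in beta-catenin cells (7.71 ± 0.256, against 5.34 ± 0.026 in control cells, limma adjusted p = 9.46e-08). In ICAT cells it differed from control by 0.04 without passing. Epas1, which encodes HIF-2alpha, fell 2.21-fold in beta-catenin cells and rose 3.48-fold in ICAT cells (adjusted p = 5.35e-08). Hif1a, which encodes HIF-1alpha, rose 1.40-fold in ICAT cells and differed by -0.09 in beta-catenin cells without passing. Arnt, the partner of both, rose 1.19-fold in beta-catenin cells and 1.39-fold in ICAT cells. Akt1, a kinase gene of insulin signalling, fell 1.37-fold in beta-catenin cells and 1.21-fold in ICAT cells. Trim21, which encodes a ubiquitin ligase reported to target the PFKP protein, rose 1.52-fold in ICAT cells.

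The genes most like Pfkp over the 9 arrays were Zfp354c, Sec16b and Ctps2. Likeness was the root mean square difference between log2 values after the control mean of each gene was subtracted. It was 0.13 for Zfp354c, 0.14 for Sec16b and 0.15 for Ctps2, against a median of 1.30 over all genes. For Pfkfb3 they were Nrn1 (0.11), Hfe (0.14) and Casp1 (0.14), against a median of 0.97. The genes named were picked for the smallest values, so their lying below the median follows from the choice. No other member spanned 1 or more on the log2 scale between group means.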

How the data were processed

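RNA of 9 cell samples was measured on Affymetrix mouse arrays. The deposited values are log2 expression per probe set, made by the authors with RMA and affy per the submitters' processing notes (versions not given in the sources used here). Genes were named from the platform annotation through RefSeq, using probe sets with 1 gene symbol, and each gene was read from its probe set of highest mean signal. Genes at log2 5 or more on at least 3 arrays were fitted together over the 3 groups with limma 3.58.1 in R 4.3.3 (lmFit, eBayes, Benjamini-Hochberg, threshold 0.05), and all probe sets were fitted likewise. The fit was tested on simulated data with independent arrays, which cannot show the effect of variation shared between arrays. Members, gene lists and markers were chosen with earlier results of these data known. The text names all members, at most 6 called genes per list with the largest change in either line against control, and the 3 genes most like each member whose group means span 1 or more. Alternatives were other filters, the mean of a gene's probe sets, array weights, a replicate block and leaving out each array. No label says that a replicate number marks a shared culture or day. Array number and signal over background limit the precision.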

Additional observations from a re-analysis of the deposited data

Results flagged for a closer look

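Pfkl was singled out because its change differed between the transfected lines by a direct test. The difference of beta-catenin minus ICAT cells was -0.77 on the log2 scale (limma adjusted p = 1.49e-05), and all 3 beta-catenin arrays lay below all 3 ICAT arrays. These values are those that singled it out and add no further support. In this comparison 40.4 percent of all genes were called, and the arrays did not overlap for 47.6 percent.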

How the results depend on the processing

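The counts of 4, 3 and 3 members called (beta-catenin against control, ICAT against control, beta-catenin against ICAT) were the same with no filter, with all probe sets, with the most variable or the averaged probe sets, with arrays centred, with array weights, with a trended robust spread and with only the compared groups. With no filter, all probe sets or the most variable probe sets, each member was still read from its brightest probe set. These settings therefore do not test the choice of probe set, and the averaged setting includes the brightest one. In ICAT against control cells none of the 8 other probe sets passed by limma. A filter of log2 7 left 4 members and calls of 3, 2 and 2. Leaving out 1 array gave 4, 3 to 4 and 3, the extra call being Pfkl without ICAT replicate 1 (0.24, limma adjusted p = 0.0149). Differences near 0 changed sign when 1 array was left out, with ranges of -0.0155 to 0.18 for Pfkfb2 (beta-catenin against control), -0.12 to 0.021 for Pfkfb4 (ICAT against control), and -0.11 to 0.0142 for Pfkfb2 and -0.0835 to 0.054 for Pfkfb4 (beta-catenin against ICAT), where Pfkfb4 was -0.0152 without beta-catenin replicate 1. None of these passed.

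With the mean of all probe sets the ICAT shift was 0.37 for Pfkp minus Pfkl, -0.0016 for Pfkp minus Pfkm and 0.43 for Pfkfb3 minus Pfkfb4, since the other probe sets moved less. Leaving out 1 array gave 1.10 to 1.16, 0.74 to 0.86 and 0.53 to 0.75 for these balances and 0.27 to 0.54 for Pfkfb3 minus Pfkfb2. The labels do not say whether replicate numbers pair the samples, and the values do not settle it. Deviations of same-numbered arrays correlated from -0.129 to 0.41, and over 0.1 in 5 of 9 pairs. Of 18 best matches 11 had the same number. With the replicate block the calls stayed at 4, 3 and 3 and the other probe sets called in ICAT against control cells at 0, and paired exact tests of the balances cannot go below p = 0.25. Dim probe sets, such as those of Pfkfb3 and Pfkfb2, limit what can be seen here.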

Other observations

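The step that opposes phosphofructokinase and the entry of pyruvate into mitochondria were read from a list of 11 genes, of which 9 were tested. By limma 1 was called higher and 2 lower in beta-catenin cells. In ICAT cells 2 were called higher and none lower, and none was lower at an unadjusted threshold of 0.05 either. These are 33.3 percent of the list in beta-catenin cells and 22.2 percent in ICAT cells, against 34.9 percent and 37.2 percent of all genes. Pdha1, which encodes a subunit of pyruvate dehydrogenase, rose in both lines, by 1.84-fold in beta-catenin cells and by 1.30-fold in ICAT cells (adjusted p = 3.97e-07 for beta-catenin, 0.000322 for ICAT). Pdk1, which encodes a kinase that inhibits this enzyme, fell 1.31-fold in beta-catenin cells and rose 1.65-fold in ICAT cells. Pdp1, which encodes a phosphatase that activates it, fell 1.32-fold in beta-catenin cells and differed from control by -0.09 in ICAT cells without passing. The fructose bisphosphatase genes Fbp1 and Fbp2 and the related Tigar passed in neither line.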
